A study of Sus scrofa with 15 samples.

Results

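The genes described here are BMP6 and 9 further genes of the bone morphogenetic protein (BMP) pathway in the backfat of Iberian pigs. The others are the ligands BMP2 and BMP4, the receptors BMPR1A, BMPR2 and ACVR1, the inhibitory SMADs SMAD6 and SMAD7, and the target genes ID1 and ID3. They are 10 of the 30477 genes counted in each library, and all 10 passed the filter on low counts, as did 14918 genes in all. The 10 were named by symbol, and BMP6 was picked because its level was higher in the pigs fed wet crude olive cake. For that reason the BMP6 values that involve this diet are a description and carry no test.

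BMPs are secreted growth factors that bind pairs of type I and type II receptor kinases at the cell surface. The activated receptors phosphorylate SMAD1, SMAD5 and SMAD9, which join SMAD4, enter the nucleus and switch on target genes such as the ID family. SMAD6 and SMAD7 are themselves induced by signalling and damp it, the first mainly on the BMP branch and the second on both the BMP and the TGF-beta branch. In adipose tissue BMP2 and BMP4 are known for committing precursor cells to the adipocyte lineage, and BMP6 is best known as the endothelial ligand through which the liver senses iron.

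All pigs were of the Iberian breed and about a year old when a biopsy of subcutaneous fat was taken at the end of the growing period. The control group (C) received a standard compound feed, and the DOP group a compound feed made with dry olive pulp. The WCOC group received a compound feed without olive by-product, with free access to a silage of wet crude olive cake and barley straw. Per the study, compound feed was restricted, and less so in C than in DOP and WCOC. Feeding level and diet thus cannot be told apart in the comparisons with C. Each diet gave 5 libraries, 1 per pig, chosen by the study mainly for RNA quantity and quality. Each diet group lived in a single pen, so pen and diet cannot be told apart.

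Counts on genes ranged from 22373715 to 34745218 per library. Sequencing runs were unequally divided: flow cell A held 4 C and 5 WCOC libraries, and flow cell B held 5 DOP libraries and 1 C library, so DOP and its flow cell can hardly be told apart. Within flow cell A, lane 2 held 4 C and 3 WCOC libraries, and lane 8 held the remaining 2 WCOC libraries. The adipocyte markers (8 of 8 found, ADIPOQ with the most counts) summed to between 15005 and 23135 CPM in every library, so each library held fat. Skeletal muscle markers (4 of 9 found) summed to between 35.0 and 39083 CPM in DOP, 46.1 to 3119 CPM in C and 19.8 to 632 CPM in WCOC. In DOP replicate 5 the muscle sum (39083 CPM) was above the adipocyte sum (18325 CPM). That library thus held much muscle RNA beside fat, and it is part of every DOP mean and comparison. Macrophage markers summed to 206 to 561 CPM in C, 155 to 383 CPM in DOP and 108 to 274 CPM in WCOC. Levels below are CPM, counts put on a common library size after TMM scaling, which adjusts for library composition. They are compared between libraries for the same gene only. Because the tissue was measured in bulk, fewer cells of a type and less RNA per cell cannot be told apart.

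The promoters of SMAD7, ID1 and ID3 are shown first because these genes are known direct targets of SMAD proteins, which bind a short box in DNA. The box searched was GTCT, or AGAC on the other strand, in the 250 bases before the RefSeq start of the gene in Sscrofa11.1. The capitals mark each match. SMAD7 lies on the minus strand with its window at chr1:98543925-98544174, ID1 on the plus strand at chr17:35316268-35316517 and ID3 on the minus strand at chr6:81424170-81424419.
SMAD7: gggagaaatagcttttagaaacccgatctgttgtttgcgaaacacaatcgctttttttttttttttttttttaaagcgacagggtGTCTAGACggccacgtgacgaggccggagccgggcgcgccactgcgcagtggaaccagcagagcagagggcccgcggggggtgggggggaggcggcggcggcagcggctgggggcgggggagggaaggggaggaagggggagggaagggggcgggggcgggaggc
ID1: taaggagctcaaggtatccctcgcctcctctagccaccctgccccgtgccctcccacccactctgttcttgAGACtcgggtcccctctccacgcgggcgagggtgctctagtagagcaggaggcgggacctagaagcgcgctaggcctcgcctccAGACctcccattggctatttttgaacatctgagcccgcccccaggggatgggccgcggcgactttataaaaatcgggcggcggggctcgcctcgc
ID3: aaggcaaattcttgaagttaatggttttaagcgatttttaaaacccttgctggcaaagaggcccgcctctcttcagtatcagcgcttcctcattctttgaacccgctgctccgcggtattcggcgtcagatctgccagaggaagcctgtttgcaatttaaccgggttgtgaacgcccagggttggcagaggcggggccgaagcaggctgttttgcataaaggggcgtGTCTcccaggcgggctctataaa
The SMAD7 window holds the box on both strands at once as the palindrome GTCTAGAC, which 32 of 19556 promoters of the same length hold (0.164%). ID1 held 2 single boxes and ID3 held 1. Of the other members BMP6 held 6, BMP2 and BMP4 held 2 each, BMPR2 and ACVR1 held 1 each, and SMAD6 and BMPR1A held 0. At least 5 were present in 2.62% of promoters. The BMP6 window is not printed because its RefSeq model has only 1643 bases of exon, which leaves the start of the gene uncertain. The starts of SMAD6 and BMPR2 are uncertain as well, so their counts of boxes may not describe a promoter. The SMAD6 window had 39.6% GC, the lowest of the members, and the BMPR2 model has 3134 bases of exon. A single box is common, since 77.7% of all promoters of this length had at least 1 and 46.1% at least 2. The GC-rich box GGCGCC, which reads the same on both strands and was also searched, was present in 16.1% of promoters and in BMP6, BMP2 and BMPR1A, but not in the 3 windows shown. The matches describe the letters only and no binding was measured.

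BMP6 was chosen for its higher level in WCOC, and its values are given as a description. Its levels in C were 17.5, 12.9, 16.2, 15.3 and 13.1 CPM. In DOP they were 23.1, 17.2, 18.2, 21.1 and 13.7 CPM. In WCOC they were 25.1, 21.8, 18.5, 29.1 and 22.1 CPM. The lowest WCOC pig stood above the highest C pig, while DOP overlapped with both neighbours. The order of the means was C (15 ± 2.0, SD, n = 5), DOP (18.7 ± 3.6) and WCOC (23.3 ± 4.0). These levels rested on 303 to 916 counts per library.

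On the log2 scale BMP6 was 0.64 ± 0.15 (SE) higher in WCOC than in C, a fold of 1.55, and 0.32 ± 0.15 higher in WCOC than in DOP. Between DOP and C, which the choice of the gene did not use directly although the C pigs are the same, the log2FC was 0.32 ± 0.15. That difference did not pass the test (adjusted p = 0.284, edgeR quasi-likelihood test with Benjamini-Hochberg adjustment over all genes tested). Within lane 2 of flow cell A the 4 C libraries lay between 12.9 and 17.5 CPM and the 3 WCOC libraries between 18.5 and 25.1 CPM, and the log2FC there was 0.48. With flow cell as a factor the log2FC was 0.079 in WCOC vs. DOP, against 0.32 without it, and 0.51 in DOP vs. C (adjusted p = 0.527), also against 0.32.

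**Figure D1:**
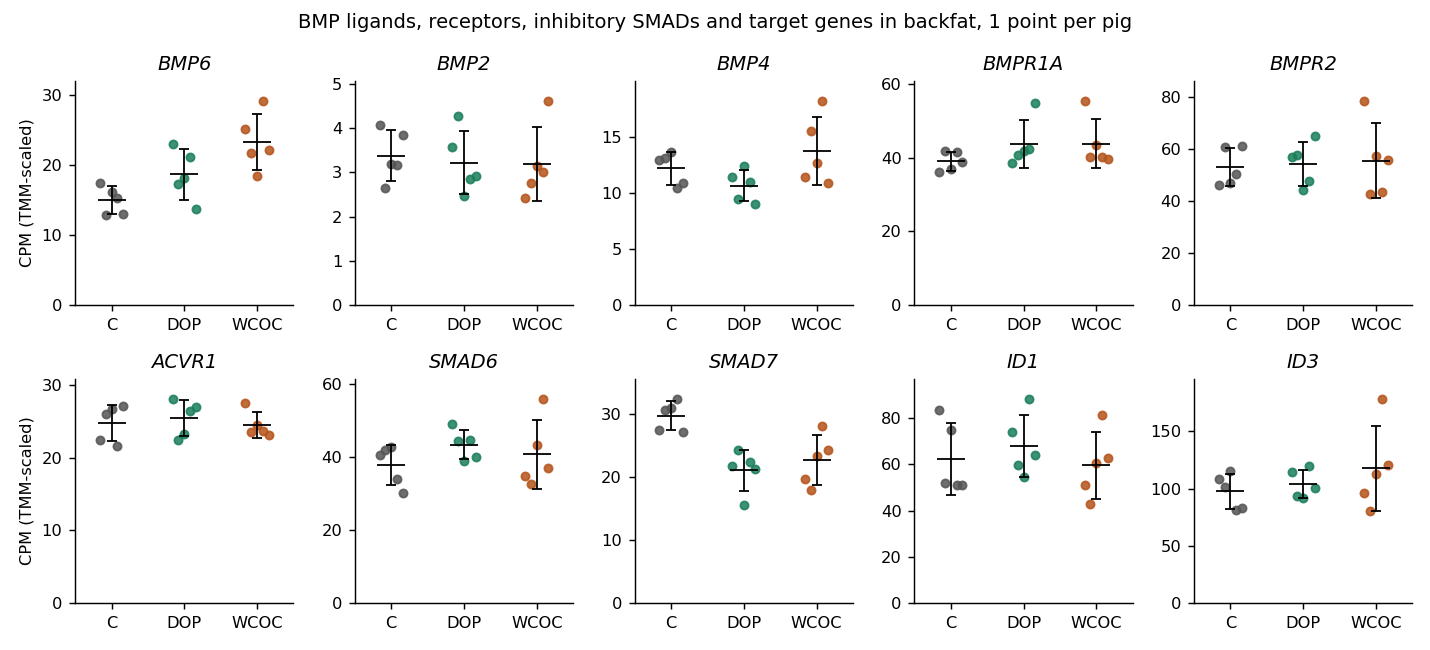
Level of each of the 10 genes in CPM (y axis, from 0) by diet, with 1 point per pig, a horizontal bar for the mean and error bars for the SD (n = 5). BMP6 is lowest in C and highest in WCOC, SMAD7 is lower in every DOP pig than in every C pig, and the diets overlap for the other 8 genes.

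Endothelial cells are a known source of BMP6 in other tissues, so their markers are given beside it. The 7 endothelial markers found of 9 summed to 951 to 1182 CPM in C, 1235 to 1607 CPM in DOP and 1049 to 1701 CPM in WCOC. The sums did not overlap between C and DOP, with DOP the higher, and overlapped between DOP and WCOC. All 7 had a higher mean in WCOC than in C and 2 of them were called, beside 6.25% of all genes, the tight junction gene CLDN5 (log2FC 0.75, adjusted p = 0.0123, edgeR) and the transcription factor ERG (0.64, adjusted p = 0.00176). In DOP vs. C, 6 of 7 had a higher mean and 0 were called, beside 0.764% of all genes. At an unadjusted p under 0.05 (edgeR) the count was 5 of 7, beside 17.6% of all genes. Across the 15 libraries the correlation of BMP6 with these markers ranged from 0.12 to 0.84 (Pearson's r on log2 CPM), and after removal of the diet means from -0.23 to 0.71, with TEK (0.12 and -0.23) lowest and CLDN5 (0.84 and 0.71) highest. Expressed per 100 CPM of PECAM1, the endothelial marker with the most counts, BMP6 was 2.51 to 3.21 in C, 2.36 to 2.97 in DOP and 2.85 to 4.16 in WCOC. This ratio depends on the marker chosen. In WCOC vs. C the fold was 1.55 for BMP6 and 1.24 for PECAM1. It was 1.19 for KDR, 1.20 for TEK, 1.34 for TIE1, 1.46 for CDH5, 1.56 for ERG and 1.68 for CLDN5. The part of endothelial content in the BMP6 pattern was not tested.

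The means of the other ligands of the set did not rise from C through DOP to WCOC as those of BMP6 did. BMP2 was near 3 CPM in each diet, with 4.07, 2.65, 3.19, 3.16 and 3.84 CPM in C, 3.57, 4.26, 2.47, 2.85 and 2.93 CPM in DOP, and 2.42, 2.77, 3.13, 3.02 and 4.60 CPM in WCOC. The 3 diets overlapped over most of their range. The WCOC vs. C log2FC was -0.082, with a 95% interval from -0.47 to 0.31, and BMP2 had 62 to 156 counts per library.

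BMP4 measured 12.9, 13.1, 13.7, 10.4 and 10.8 CPM in C. It measured 11.4, 9.43, 12.4, 11 and 8.99 CPM in DOP and 11.4, 15.5, 12.6, 18.1 and 10.9 CPM in WCOC. The 2 highest pigs were fed WCOC, but the other 3 lay inside the range of the remaining diets. BMP4 differed most between WCOC and DOP, at a log2FC of 0.37 ± 0.15, which did not pass the test (adjusted p = 0.120, edgeR). Against C it was -0.19 in DOP and 0.17 in WCOC. The r of BMP6 with BMP4 was 0.46 over all libraries and 0.50 after removal of the diet means. With BMP2 the values were -0.085 and 0.046.

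The receptors differed little. BMPR1A, a type I receptor for BMP2 and BMP4, had means of 38.9 ± 2.6 CPM in C, 43.6 ± 6.4 CPM in DOP and 43.7 ± 6.6 CPM in WCOC (SD, n = 5). Its higher means in the olive diets came with 1 high pig each, at 54.8 CPM in DOP and 55.2 CPM in WCOC, while the other 4 pigs of each diet lay between 38.5 and 43.5 CPM. The log2FC against C was 0.16 ± 0.11 in DOP and 0.17 ± 0.11 in WCOC (adjusted p = 0.476 and 0.353, edgeR), and 0.063 and 0.068 without the high pig (DOP replicate 5 and WCOC replicate 1). BMPR1A shares its locus with MMRN2 on the opposite strand, and the strand setting of the counting is not given, so its counts are uncertain to that extent.

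BMPR2, a type II receptor for BMPs, ranged from 46.2 to 61.0 CPM in C, 44.2 to 64.9 CPM in DOP and 42.9 to 78.2 CPM in WCOC, so its groups overlapped almost wholly. ACVR1, a type I receptor used by BMP6, ranged from 21.6 to 27 CPM in C, 22.5 to 28.0 CPM in DOP and 23 to 27.5 CPM in WCOC. The intervals of the WCOC vs. C log2FC were -0.25 to 0.38 for BMPR2 and -0.19 to 0.16 for ACVR1. ACVR1 overlaps an unnamed RefSeq locus and is uncertain for the same reason as BMPR1A.

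SMAD7, the inhibitory SMAD with the palindromic box shown above, was the member with the largest difference other than BMP6. Its levels were 27.6, 30.8, 31.1, 32.4 and 27.2 CPM in C. In DOP they were 21.8, 24.4, 15.6, 22.4 and 21.4 CPM, and in WCOC 19.6, 18, 23.4, 28.2 and 24.4 CPM. Each DOP pig stood below each C pig, and 4 of the 5 WCOC pigs did so too. Of the 10 members SMAD7 was the only one whose DOP and C pigs did not overlap, beside 3.47% of all genes tested. In WCOC vs. C the only member without overlap was BMP6, which was chosen there, beside 7.62% of all genes, and in WCOC vs. DOP all 10 overlapped, beside 8.90% without overlap among all genes.

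The log2FC of SMAD7 was -0.50 ± 0.13 in DOP vs. C and -0.39 ± 0.13 in WCOC vs. C. Neither passed the edgeR test (adjusted p = 0.0827 and 0.0705). DESeq2 gave adjusted p values of 0.0120 and 0.0321 for nearly the same log2FC, which remain under the size limit of 0.58 that a call also required. Over the other settings the adjusted p ran from 0.0120 to 0.575 in DOP vs. C, the highest with flow cell as a factor, and from 0.0321 to 0.113 in WCOC vs. C. The 2 olive diets did not separate from each other, with a log2FC of 0.11 and an interval from -0.15 to 0.36. Within lane 2 of flow cell A the C libraries lay between 27.6 and 32.4 CPM and the WCOC libraries between 18 and 23.4 CPM. On flow cell B the single C library had 27.2 CPM against at most 24.4 CPM in DOP.

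SMAD6, which acts mainly against BMP receptors, did not share this pattern. It measured 40.7, 41.9, 42.6, 33.9 and 30.2 CPM in C, 49.1, 44.3, 38.9, 44.6 and 40.1 CPM in DOP, and 34.7, 32.6, 43.4, 55.8 and 37.0 CPM in WCOC. The diets overlapped, and the log2FC against C was 0.20 ± 0.14 in DOP and 0.11 ± 0.14 in WCOC (adjusted p = 0.504 and 0.674, edgeR). With flow cell as a factor the DOP value was 0.52 and the difference did not pass either.

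ID1 and ID3 encode inhibitors of basic helix-loop-helix transcription factors and are the usual readout of BMP signalling. ID1 measured 83.4, 51.8, 74.9, 51.0 and 51.1 CPM in C, 74.0, 59.6, 54.5, 88.3 and 64.0 CPM in DOP, and 51.0, 42.7, 60.5, 81.3 and 62.9 CPM in WCOC. It varied about as much between pigs of a diet as over the whole set. The WCOC vs. C log2FC was -0.064, with an interval from -0.44 to 0.31.

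ID3 measured 108, 101, 115, 81.1 and 82.6 CPM in C, 115, 93.9, 91.3, 119.8 and 101 CPM in DOP, and 96.5, 80.3, 113, 178 and 121 CPM in WCOC. The WCOC group held both the highest and the lowest pig of the 15. Its WCOC vs. C log2FC was 0.27, with an interval from -0.075 to 0.62 (adjusted p = 0.348, edgeR). Within lane 2 of flow cell A the same value was -0.078, and without the highest pig (WCOC replicate 4) it was 0.079.

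Of the 10 members, 0 were called in DOP vs. C by edgeR, where a call required both an adjusted p below 0.05 and a log2FC beyond 0.58 in either direction, beside 0.764% of all genes. Leaving BMP6 aside, 0 of 9 were called in WCOC vs. C and 0 of 9 in WCOC vs. DOP, beside 6.25% and 7.76% of all genes. At an unadjusted p under 0.05 the counts were 2 of 10 (BMP6 and SMAD7), 1 of 9 (SMAD7) and 1 of 9 (BMP4), beside 17.6%, 26.4% and 28.1% of all genes. DESeq2 also called 0 members in each comparison. The median log2FC of the 9 members in WCOC vs. C was 0.066, and that of all genes tested was 0.0043.

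**Figure D2:**
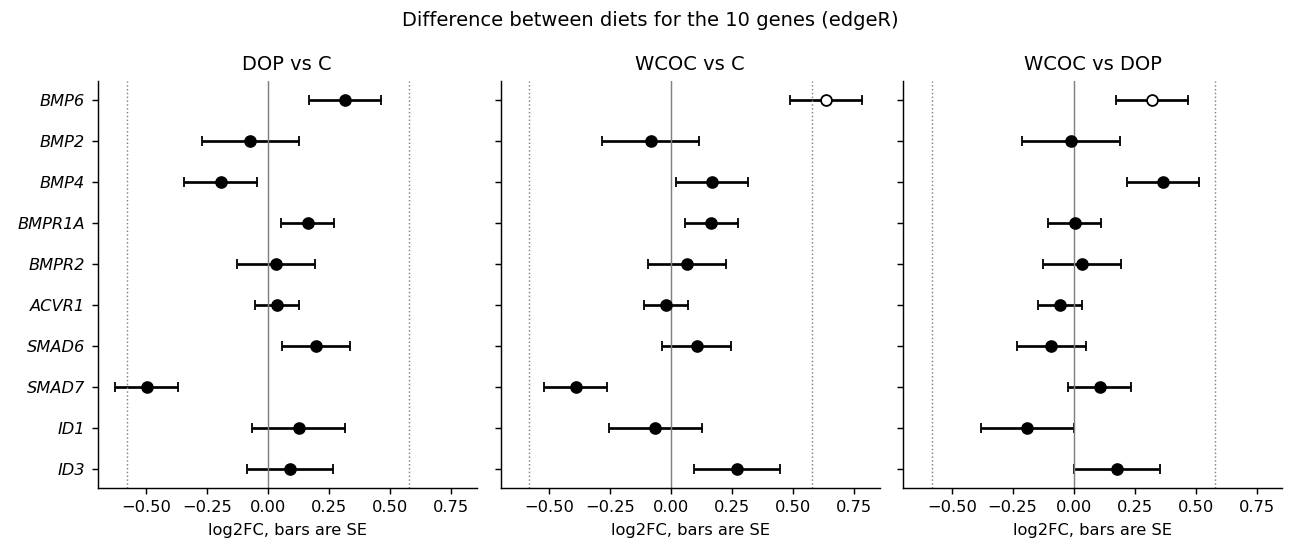
log2FC of the 10 genes (x axis) in the 3 comparisons, 1 panel each, with bars for the SE and dotted lines at the size limit of 0.58. Open circles mark BMP6 in the comparisons with WCOC, which carry no test, and SMAD7 is the member furthest below 0 in both comparisons with C (-0.50 and -0.39).

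Some members varied together between pigs, within diets as well as over the whole set, and others in opposite directions. ID1 and ID3 correlated at r = 0.77 over the 15 libraries and at 0.89 after removal of the diet means. SMAD6 correlated with ID3 at 0.83 and 0.90, and with ID1 at 0.74 and 0.75. BMP4 and BMPR2 went opposite ways, at -0.58 and -0.72, as did BMP2 and BMPR1A, at -0.53 and -0.52. These points share library, depth and cell composition, and SMAD6 also correlated with the endothelial marker PECAM1 at 0.71 and 0.71. The correlations are descriptions and carry no test.

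BMP6 tracked the target genes unevenly. Over 10 target genes (ID1, ID3 and the 8 others tested) its r ranged from -0.17 to 0.82, with 7 positive and a median of 0.36. After removal of the diet means 9 of the 10 were positive, with a median of 0.48, against 7012 positive values over the 14917 other genes tested and a median of -0.025. The endothelial markers were positive with BMP6 in 6 of 7 after the same removal, with a median of 0.38. The part of endothelial content in the target gene values was not tested. The highest of the target genes was ATOH8, a transcription factor that responds to BMP and iron signals, at 0.82 and 0.87. ATOH8 itself had means of 47.0, 51.0 and 57.3 CPM in C, DOP and WCOC, and its WCOC vs. C log2FC of 0.29 did not pass the test (adjusted p = 0.283, edgeR). With ID1 the r of BMP6 was 0.29 and 0.58, and with ID3 0.56 and 0.50. With SMAD7 it was -0.36 over all libraries and 0.16 after removal of the diet means.

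**Figure D3:**
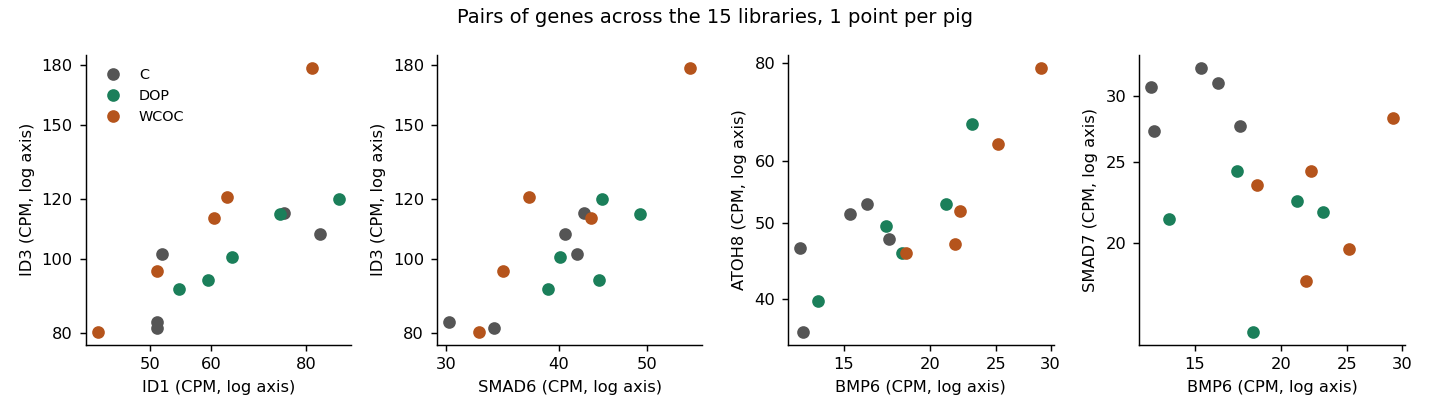
Levels of 4 pairs of genes in CPM on log axes, with 1 point per pig coloured by diet. ID3 is high in the pigs where ID1 and SMAD6 are high, ATOH8 is highest in the pig with the highest BMP6 (29.1 CPM), and SMAD7 shows the C pigs in the upper left, at low BMP6.

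The genes most like BMP6 were sought over 11132 genes with a symbol and a mean of at least 1 CPM. The 5 highest were SDK1 (r = 0.91), a cell adhesion molecule, LZTS2 (0.90), GNAZ (0.89), a G protein subunit, TBC1D30 (0.89) and NISCH (0.87). After removal of the diet means their r was 0.78, 0.88, 0.77, 0.81 and 0.77. The mean of SDK1 was 18.5 CPM in C, 23.5 CPM in DOP and 36.5 CPM in WCOC, the same order of means as BMP6. The 3 lowest were SPAG16 (-0.89), MMGT1 (-0.87) and MMS22L (-0.85). These 15 points share diet, run and cell composition, and the 8 genes are the extremes of all those compared.

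A wider list of the pathway held 64 further genes, of which 61 were found by symbol and 48 were tested. Those under the filter included the ligands GDF2 and BMP10 and the antagonists NOG and GREM1, which had at most 3, 0, 5 and 18 counts in any library. The list had 0 calls in DOP vs. C (edgeR), where 0.764% of all genes were called. The study, which used DESeq2, lists BMP5 among its genes that differed between DOP and C. Here the log2FC of BMP5 was 0.71 and did not pass (adjusted p = 0.305, edgeR). In DOP vs. C, 10 of the 48 had an unadjusted p under 0.05 (edgeR), beside 17.6% of all genes. The same count was 11 in WCOC vs. C, beside 26.4%, and 18 in WCOC vs. DOP, beside 28.1%. In WCOC vs. C the list had 2 calls, both higher, where 2.33% of all genes were called higher. In WCOC vs. DOP it had 3 calls, 1 higher and 2 lower, where 2.65% of all genes were called higher and 5.11% lower. These counts are 4.17% and 6.25% of the 48 genes, beside 6.25% and 7.76% of all genes. The median log2FC of the list was 0.085 in DOP vs. C, -0.043 in WCOC vs. C and -0.094 in WCOC vs. DOP, and that of all genes was 0.011, 0.0043 and 0.00067.

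RGMA was the strongest call. It belongs to the repulsive guidance molecules, membrane-anchored proteins that bind BMP ligands and act as co-receptors. RGMA measured 61.0, 84.8, 66.5, 86.0 and 69.4 CPM in C, 99.3, 70.9, 100.5, 73.2 and 97.0 CPM in DOP, and 115, 128, 118, 128 and 116 CPM in WCOC. Each WCOC pig stood above all 10 others. It rose in WCOC vs. C by a log2FC of 0.72 ± 0.12, a fold of 1.65 (adjusted p = 0.00267, edgeR). Against DOP the log2FC was 0.46 ± 0.12 (adjusted p = 0.0254), under the size limit.

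CRIM1, a transmembrane protein that binds BMPs and limits their processing and release, was the other rise. It measured 129, 165, 131, 135 and 129 CPM in C, 194, 126, 168, 128 and 119 CPM in DOP, and 298, 200.4, 199, 258 and 199 CPM in WCOC. The WCOC pigs again stood above all others. The log2FC was 0.75 ± 0.15 against C (fold 1.68, adjusted p = 0.00973, edgeR) and 0.65 ± 0.15 against DOP (adjusted p = 0.0167). Without the highest WCOC pig (replicate 1) the log2FC against DOP was 0.54, under the size limit. CRIM1 overlaps FEZ2 on the opposite strand.

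Within lane 2 of flow cell A alone, with 4 C and 3 WCOC libraries, the log2FC was 0.68 for RGMA and 0.73 for CRIM1, but neither passed the test there (adjusted p = 0.0832 and 0.0989, edgeR). BMP6 correlated with CRIM1 at 0.76 over all libraries and 0.50 after removal of the diet means. With RGMA the values were 0.60 and -0.17.

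The 2 lower calls in WCOC vs. DOP were HJV and BMPR1B. HJV, hemojuvelin, is the BMP6 co-receptor known from liver and skeletal muscle. It measured 0.040, 19.3, 0.52, 17.6 and 121 CPM in DOP, at most 11.15 CPM in C and at most 1.97 CPM in WCOC. The 3 DOP pigs with high HJV were the 3 with the highest skeletal muscle marker sums (9658, 5098 and 39083 CPM, against 35.0 and 192 CPM in the other 2). BMPR1B, a type I receptor, was at most 1.20 CPM in 14 pigs and at 4.85 CPM in the DOP pig with the highest muscle marker sum. Their adjusted p was 0.0389 and 0.0390 (edgeR). Without that pig the log2FC was -4.03 for HJV and -1.21 for BMPR1B, with adjusted p of 0.121 and 0.155. Each call was also lost on leaving out 7 other single libraries of 9.

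**Figure D4:**
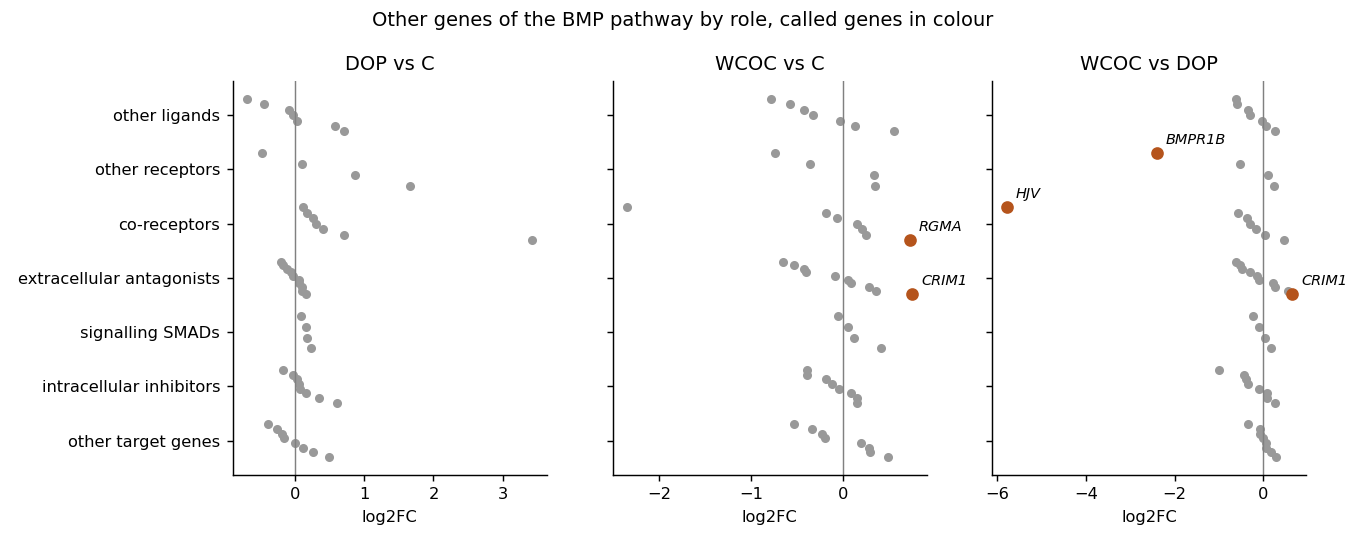
log2FC of the 48 other pathway genes tested (x axis, with a range of its own in each panel), grouped by role, 1 point per gene. Called genes are coloured and named, and they are RGMA and CRIM1 in WCOC vs. C, and CRIM1, BMPR1B and HJV in WCOC vs. DOP, with no call in DOP vs. C.

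By role, of the 7 genes tested under the further ligands 0 were called in WCOC vs. C (edgeR), and 5 had a lower mean there. At an unadjusted p under 0.05 the count was 1 of 7, beside 26.4% of all genes. The one with the most counts was BMP1, a protease that carries the BMP name but is no ligand, at 197 ± 20 CPM in C and 157 ± 15 CPM in WCOC (log2FC -0.33, adjusted p = 0.0494, under the size limit, edgeR). Among the 4 further receptors ACVRL1, an endothelial receptor for BMP9 and BMP10, measured 92.2 ± 22.8, 65.9 ± 16.3 and 71.4 ± 6.9 CPM in C, DOP and WCOC and did not pass. The type II receptor ACVR2A had a log2FC of 0.33 in WCOC vs. C (adjusted p = 0.0307, under the size limit), and its WCOC pigs did not overlap with C.

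The 7 co-receptors all had higher means in DOP than in C, at a median log2FC of 0.30, with 0 called (edgeR). Of these, 4 had an unadjusted p under 0.05, beside 17.6% of all genes. DOP replicate 5, the pig with the highest skeletal muscle marker sum (39083 CPM), had the highest DOP level of RGMB (74.2 against 22.4 to 36.7 CPM), NEO1 (53.5 against 29.0 to 37.1 CPM) and HJV. The part of muscle content in these means was not tested. ENG, the endothelial co-receptor endoglin, had the most counts and measured 276 ± 52, 297 ± 56 and 242 ± 23 CPM in C, DOP and WCOC. Of the 10 extracellular antagonists FSTL1 had the most counts, at 668 ± 142 CPM in C and 460 ± 63 CPM in WCOC (log2FC -0.54, adjusted p = 0.0306, under the size limit, edgeR). In the same comparison the fibroblast marker list had 7 of 7 lower means, with 4 called, beside 6.25% of all genes, and the part of fibroblast content in the FSTL1 value was not tested.

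The 4 signalling SMADs were not called in any comparison. SMAD1 came nearest, at 26.0 ± 2.8 CPM in C, 30.3 ± 2.8 CPM in DOP and 34.4 ± 6.6 CPM in WCOC (log2FC WCOC vs. C 0.40, adjusted p = 0.0547, edgeR). SMAD4, the shared partner, measured 62.4 ± 5.0, 70.3 ± 6.3 and 60 ± 3.2 CPM. Of the 8 intracellular inhibitors, 0 were called in DOP vs. C, WCOC vs. C or WCOC vs. DOP (edgeR), beside 0.764%, 6.25% and 7.76% of all genes. In WCOC vs. DOP 5 of the 8 had an unadjusted p under 0.05, beside 28.1% of all genes. The same count was 1 in DOP vs. C, beside 17.6%, and 0 in WCOC vs. C, beside 26.4%. PPM1A was lower in WCOC than in DOP (log2FC -0.39, adjusted p = 0.0323, under the size limit, edgeR). PMEPA1, with the most counts, measured 181 ± 39, 185 ± 46 and 138 ± 30 CPM in C, DOP and WCOC. The 8 further target genes had 4 higher and 4 lower means in WCOC vs. C, a median log2FC of -0.0054 and 0 calls, beside 6.25% of all genes.

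Because BMP6 is known as an iron signal, 16 genes of iron handling were also listed, of which 10 were tested. HAMP, the liver hormone that BMP6 induces, had at most 6 counts in any library and was not tested. Transferrin (TF), the plasma carrier of iron, measured 2.45, 1.92, 2.01, 3.51 and 2.39 CPM in C, 1.16, 1.51, 3.02, 1.88 and 1.32 CPM in DOP, and 9.78, 5.84, 6.82, 11.9 and 11.2 CPM in WCOC. The WCOC pigs stood wholly apart. TF rose by a log2FC of 1.89 ± 0.28 against C (fold 3.71, adjusted p = 0.00133, edgeR) and 2.35 ± 0.29 against DOP (adjusted p = 0.000739). Within lane 2 of flow cell A its log2FC against C was 1.59 and did not pass (adjusted p = 0.0721).

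The transferrin receptor TFRC, which takes up transferrin-bound iron, measured 40.5, 57.3, 41.8, 49.2 and 62.5 CPM in C, 38.6, 53.7, 36.2, 41.8 and 111 CPM in DOP, and 20.3, 18.5, 30.5, 25.7 and 40.1 CPM in WCOC. It fell in WCOC vs. DOP (log2FC -1.06 ± 0.30, adjusted p = 0.0335, edgeR), but without the highest DOP pig (replicate 5) the log2FC was -0.66 and did not pass (adjusted p = 0.0711), and the call was lost on leaving out any of 5 further single libraries. Its WCOC and C pigs did not overlap, and the log2FC of -0.89 did not pass (adjusted p = 0.0699). ACO1, a cytosolic aconitase that doubles as an iron sensor, fell in WCOC vs. DOP as well (-0.77 ± 0.23, adjusted p = 0.0419), and the call was lost on leaving out any of 7 single libraries. The adjusted p of ACO1 in WCOC vs. C was 0.0526, at a log2FC of -0.75. FTL, the ferritin light chain and the gene of the list with the most counts, had 1444 ± 382, 1234 ± 205 and 1456 ± 244 CPM in C, DOP and WCOC. With TF, TFRC, ACO1 and HJV, the iron list had 0 calls in DOP vs. C and, BMP6 left aside, 1 of 9 in WCOC vs. C and 4 of 9 in WCOC vs. DOP, beside 0.764%, 6.25% and 7.76% of all genes. With flow cell as a factor none of these 4 calls against DOP remained, at adjusted p of 0.253 to 0.648 (edgeR). That factor rests on the single C library of flow cell B, and with it 1 of 14918 genes was called in WCOC vs. DOP. Over the alternative settings, the flow cell factor included, the TF log2FC against DOP lay between 2.30 and 2.37, and none of the 4 genes changed direction.

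**Figure D5:**
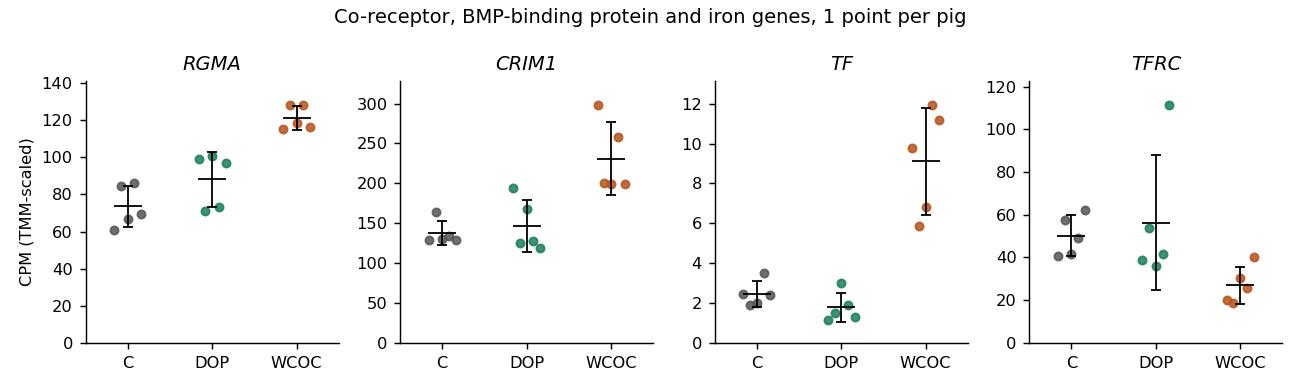
Levels of RGMA, CRIM1, TF and TFRC in CPM (y axis, from 0) by diet, with 1 point per pig, the mean and the SD (n = 5). The WCOC pigs are above all others for RGMA, CRIM1 and TF, and TFRC in WCOC lies below every C pig (at most 40.1 against at least 40.5 CPM).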

How the data were processed

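RNA of backfat from 15 pigs was sequenced as paired-end libraries. Per the labels and the study's methods, the authors mapped reads to Sscrofa11.1 with HISAT2, as strand-specific, and used HTSeq to count reads on Ensembl genes. The deposited files hold raw counts per library, without normalization or pooling. The strand setting of the counting is not given in the sources used here. Read pairs not placed on a gene (23.4% to 32.8% per library) stayed out of library sizes. Flow cell and lane were read from the run identifiers in the deposited files.

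Counts were analysed with edgeR 4.0.16 in R 4.3.3. Genes kept by filterByExpr (14918) were scaled by TMM and fitted in 1 quasi-likelihood model over all 15 libraries, with 2-sided contrasts and Benjamini-Hochberg adjustment over all genes. Genes were called at an adjusted p below 0.05 with a log2FC beyond 0.58 in either direction. CPM and log2 CPM (prior count 1) were computed here from the deposited counts. The p-values test a difference of diet means against the spread between pigs within diets, estimated over all 15 libraries. Intervals are 95% (1.96 SE). Correlations used log2 CPM. Promoters came from RefSeq's Sscrofa11.1, and 14864 identifiers had a symbol. DESeq2 1.42.0 and limma 3.58.1 (voom) were alternatives, beside other filters, scalings, a flow cell factor, a replicate block and single libraries left out. The workflow was tested on simulated data.

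The members and lists were chosen with earlier results of these data known. All members were described, with the pathway and iron genes called in a comparison, the gene of each role with the most counts, and the 5 highest and 3 lowest correlations with BMP6. Further genes under the size limit, and BMP5, which the study lists, were named after their values were seen.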

Additional observations from a re-analysis of the deposited data

Results flagged for a closer look

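In 30 groups of 5 pigs (10 genes in 3 diets) the most extreme pig was compared with the range of its group. A gap over 0.71 of the range was looked for, which chance gives in about 1 of 20 groups, and 2 groups exceeded it. BMPR1A was at 54.8 CPM in DOP replicate 5, where the other 4 pigs lay between 38.5 and 42.2 CPM (gap 0.774 of the range). BMPR1A was at 55.2 CPM in WCOC replicate 1, where the other 4 lay between 39.5 and 43.5 CPM (gap 0.747). DOP replicate 5 was also the pig with the highest skeletal muscle marker sum (39083 CPM), and WCOC replicate 1 had the highest BMPR2 (78.2 CPM) and CRIM1 (298 CPM) of all pigs. The part of these in the BMPR1A values was not tested.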

How the results depend on the processing

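The count of members called, BMP6 left aside in the comparisons with WCOC, stayed at 0 in each comparison under every alternative run, single libraries left out included. Of the values compared, 674 were counted as unchanged, 48 no longer passed and 43 changed sign, all of the last being log2FC of members that passed no test. Unchanged meant the same direction and the same side of the threshold. For BMP6 in the comparisons with WCOC, which carry no test, it meant the same direction and a shift below the SD between pigs. With flow cell as a factor the log2FC was -0.17 for BMPR2 and -0.089 for ACVR1 in DOP vs. C and 0.015 for ACVR1 in WCOC vs. C. In WCOC vs. DOP it was 0.23 for BMP2, -0.0016 for BMPR1A, 0.10 for ACVR1, -0.056 for SMAD7 and -0.12 for ID3. In WCOC vs. C, ACVR1 was at 0.0057 in flow cell A, and in lane 2 alone (chosen after seeing the data) ACVR1 was at 0.048, SMAD6 at -0.12 and ID3 at -0.078. BMP2 was at 0.0030 in WCOC vs. DOP when TMM left out muscle markers and the 50 genes with the most counts.

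The pathway list had 5 calls in WCOC vs. C and 7 in WCOC vs. DOP without a size limit. In WCOC vs. C it had 0 in lane 2 alone. In WCOC vs. DOP it had 1 with a minimum of 10 counts in every library, 1 with limma-voom and 0 with flow cell as a factor. Over all genes, DOP vs. C gave 495 calls with DESeq2, 19 with limma-voom and 2 when only these diets were fitted, against 114. WCOC vs. C gave 1493 without a size limit, 486 in flow cell A and 34 in lane 2, against 933. WCOC vs. DOP gave 1842 without a size limit and 1 with flow cell as a factor, against 1158. The cause of these moves was not tested. Fewer libraries were fitted in flow cell A and in lane 2.

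Leaving out 1 library at a time gave 0 to 200 calls over all genes in DOP vs. C, 468 to 1163 in WCOC vs. C and 639 to 1291 in WCOC vs. DOP. The pathway list had 0 to 0, 2 to 3 and 0 to 4. The 0 in DOP vs. C came without C replicate 3 or 5 or DOP replicate 2 or 4, with 2135 to 2426 genes at an unadjusted p under 0.05 in edgeR. The log2FC ranges of members that changed sign were, in DOP vs. C, -0.20 to 0.0041 for BMP2, -0.044 to 0.091 for BMPR2 and -0.010 to 0.073 for ACVR1. In WCOC vs. C they were -0.25 to 0.0019 for BMP2, -0.090 to 0.15 for BMPR2, -0.069 to 0.014 for ACVR1, -0.030 to 0.17 for SMAD6 and -0.19 to 0.055 for ID1. In WCOC vs. DOP they were -0.18 to 0.11 for BMP2, -0.094 to 0.095 for BMPR1A, -0.12 to 0.12 for BMPR2 and -0.0068 to 0.29 for ID3.

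The replicate numbers did not pair the pigs: deviations of same-numbered libraries correlated at -0.50 to 0.34, and 1 of 15 libraries correlated best with its own number. With the replicate block, calls over all genes were 0 in DOP vs. C (1950 at an unadjusted p under 0.05, edgeR), 473 in WCOC vs. C and 561 in WCOC vs. DOP, and the pathway list had 1 call in WCOC vs. DOP. BMP2 had the fewest counts of the members (62 to 156 per library).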
